A study of Homo sapiens with 6 samples.

Results

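The genes examined were 9 interferon response genes of the human genome, taken as a list of symbols with earlier results of these data known: ISG15, IFI6, IFIT1, IFIT2, IFIT3, IFIT5, IRF9, OAS1 and TRIM25. Of these 9 genes, 8 had a row among the 21301 genes of the deposited table, and IFIT3 was not analysed here. They were measured by poly(A)-selected RNA-seq in SH-SY5Y, a human neuroblastoma line, 72 h after siControl or siPSF had been given at 10 nM, with 3 libraries in each of the 2 groups. PSF is the RNA-binding protein encoded by SFPQ. Both groups had received a transfected siRNA, PSF was lowered with a single siRNA, and untreated cells were not analysed here, so every comparison below is between cells treated with short double-stranded RNA. The 2 groups carried no other agent or allele in the labels, and the study calls the 3 libraries of a group biological replicates.

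Interferons are secreted proteins that cells release when they sense foreign nucleic acid. Type I interferon binds the receptor IFNAR1 and IFNAR2, the kinases JAK1 and TYK2 phosphorylate STAT proteins, and these join IRF9 to form the factor ISGF3. ISGF3 binds the interferon-stimulated response element (ISRE) in the promoters of antiviral genes, and many of these genes encode proteins of the pathway itself. ISG15 is a ubiquitin-like modifier that is attached to proteins. IFIT1, IFIT2, IFIT3 and IFIT5 are tetratricopeptide proteins, of which IFIT1 and IFIT5 bind the 5′ ends of foreign RNA. OAS1 makes 2′-5′ oligoadenylate when it meets double-stranded RNA, IFI6 is a membrane-associated antiviral protein, and TRIM25 is a ubiquitin ligase that acts on the RNA sensor RIG-I.

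The promoters of 5 genes are shown because 4 of them hold letters of the element that ISGF3 binds and the fifth, TRIM25, belongs to the gene that was called. RefSeq promoter windows of GRCh38.p14, from 250 bases before to 50 bases after each transcript start, were held for 8 of the 9 genes, all but IFIT2. The 180 bases before the start are printed 5′ to 3′ on the strand of the gene, and capitals mark complete matches to the ISRE letters GAAANNGAAA on either strand.
ISG15 (chr1:1013317-1013496, plus strand): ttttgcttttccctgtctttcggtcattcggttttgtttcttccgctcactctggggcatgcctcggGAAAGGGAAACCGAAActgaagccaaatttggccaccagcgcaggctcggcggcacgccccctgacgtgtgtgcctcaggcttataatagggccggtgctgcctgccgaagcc
IFI6 (chr1:27672193-27672372, minus strand): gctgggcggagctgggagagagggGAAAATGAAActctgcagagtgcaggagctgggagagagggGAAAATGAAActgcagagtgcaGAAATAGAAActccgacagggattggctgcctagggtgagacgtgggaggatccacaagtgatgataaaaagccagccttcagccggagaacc
IFIT1 (chr10:89392443-89392622, plus strand): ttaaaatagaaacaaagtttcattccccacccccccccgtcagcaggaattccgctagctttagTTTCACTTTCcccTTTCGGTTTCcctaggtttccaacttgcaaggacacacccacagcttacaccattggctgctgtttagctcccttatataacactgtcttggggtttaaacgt
IFIT5 (chr10:89414388-89414567, plus strand): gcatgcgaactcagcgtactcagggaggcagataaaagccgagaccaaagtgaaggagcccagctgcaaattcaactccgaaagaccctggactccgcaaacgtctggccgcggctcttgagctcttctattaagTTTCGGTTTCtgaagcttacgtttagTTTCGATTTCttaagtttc
TRIM25 (chr17:56914050-56914229, minus strand): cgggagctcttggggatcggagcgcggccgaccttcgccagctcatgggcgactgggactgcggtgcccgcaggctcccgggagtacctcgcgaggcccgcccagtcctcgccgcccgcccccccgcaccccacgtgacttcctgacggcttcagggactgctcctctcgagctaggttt

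ISRE letters were matched 2 times in the window of ISG15, 3 times in that of IFI6, 2 times in that of IFIT1, 2 times in that of IFIT3 and 3 times in that of IFIT5. Both matches of ISG15 overlap each other by 4 bases, and the third match of IFIT5 straddles the transcript start and is not printed. The windows of IRF9, OAS1 and TRIM25 held 0 matches to these letters. The shorter GAS letters TTCNNNGAA, which mark the interferon-gamma activated sequence, were found 1 time in the window of IRF9 and 1 time in that of OAS1. Over all 35116 windows of 27305 genes, 3.57% held the ISRE letters and 7.66% held the GAS letters. The letters are a strict form of the element, so a looser form, or one that reaches past the start, is not marked, and no match does not mean that a promoter lacks it. A match describes the letters of a window and says nothing of whether a factor was bound in these cells.

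**Figure D1:**
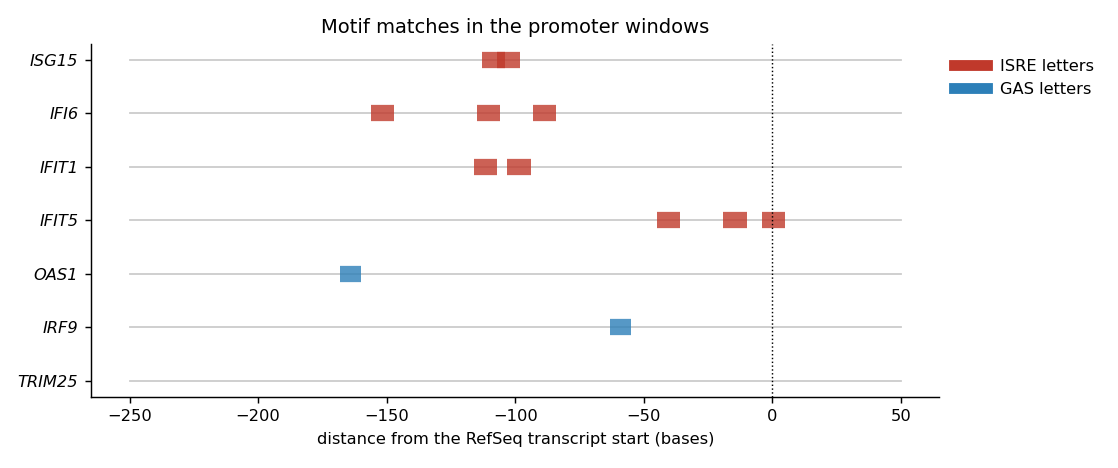
Matches to the ISRE letters (red) and GAS letters (blue) along the promoter windows of the 7 measured genes with a window; the x axis is the distance in bases from the RefSeq transcript start, and the grey lines span the window. The ISRE matches of ISG15, IFI6 and IFIT1 lie between positions -156 and -84, those of IFIT5 lie nearer to the start, and IRF9, OAS1 and TRIM25 show 0.

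The libraries held between 101540520 and 132420931 counts. SFPQ fell from 377 ± 23.1 CPM in siControl to 189 ± 22.3 CPM in siPSF (SD, n = 3 each), where CPM stands for TMM-scaled counts relative to library size, and its log2 fold change was -0.99 with edgeR's quasi-likelihood test (adjusted p = 9.5e-05, Benjamini-Hochberg over the 19694 genes tested). All 12 markers of noradrenergic neuroblastoma had a row, with GATA3 called higher and DBH and TH called lower; of the 6 fits that left out 1 library, the call held in 0 for GATA3, 6 for DBH and 4 for TH. Of 10 immune cell markers 7 had none, PTPRC and CD3E among them, while CD14, CD68 and ITGAM together gave 3.05 to 4.38 CPM in siControl and 3.80 to 5.35 CPM in siPSF. Of 6 fibroblast markers, which together gave 47.2 to 67.6 CPM in siControl and 44.1 to 50.8 CPM in siPSF, COL3A1 alone was called, and it was lower, a call that held in 2 of those 6 fits. Mitochondrial transcripts took 6.56% to 7.86% of the counts in siControl and 7.46% to 8.21% in siPSF, and the 100 most abundant genes took 17.3% to 19.6% and 21.5% to 22.9%. The part of these shares and markers in the results below was not tested. In bulk RNA, fewer cells that express a gene and less of its RNA per cell cannot be told apart. Over all genes tested, 14.9% were called at an adjusted p under 0.05, 6.65% higher (1310 genes) and 8.27% lower (1628 genes) after siPSF. With limma on the deposited FPKM, once each library had been brought to one common sum, 463 genes were called higher and 3409 lower, and the median of all genes lay at -0.16 on the log2 scale instead of 0.0097, so directions on that scale are given relative to its median.

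Of the 8 interferon response genes tested, TRIM25 alone was called after siPSF, and it rose. IFI6 was higher in every siPSF library than in every siControl library and narrowly missed the threshold. IFIT1 had the largest fold change, 2.47, from at most 20 counts in a library, and it did not pass the test. ISG15, IFIT2, IFIT5, OAS1 and IRF9 overlapped between the groups. The share called higher, 1 of 8, stands beside 6.65% of all genes, and the groups did not overlap, with siPSF higher, in 2 of 8 genes beside 16.7% of all genes. The median log2 fold change of the 8 genes was 0.25, with 7 of 8 above 0.

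**Figure D2:**
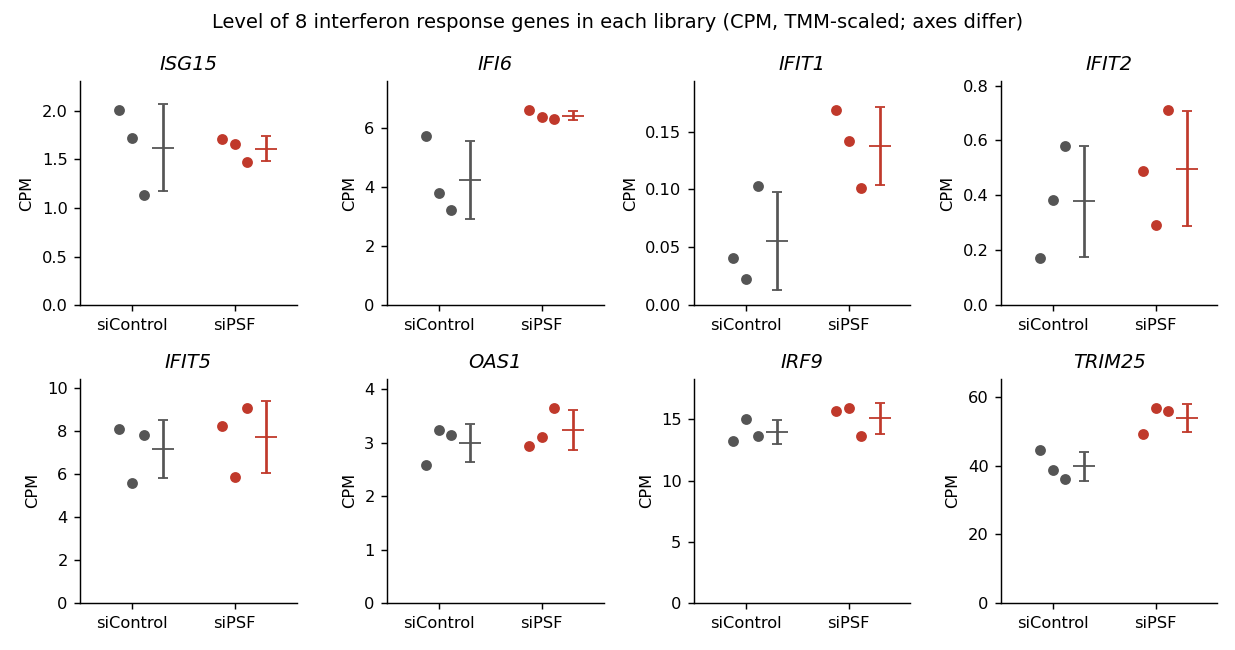
Level of each of the 8 measured genes in each library, as TMM-scaled CPM (y axis, from 0, with its own range in each panel); points are libraries, and the bar with its whiskers is the mean ± SD of the 3 libraries of a group. In TRIM25 and IFI6 all 3 siPSF libraries lie above all 3 siControl libraries, and in the other 6 genes the groups overlap.

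TRIM25 lies on chromosome 17 of GRCh38.p14 (chr17:56887909-56914049). It stood at 44.5, 38.8 and 36.2 CPM in siControl replicates 1 to 3 and at 49.2, 56.9 and 55.9 CPM in siPSF replicates 1 to 3. Every siPSF library was above the highest siControl library. Group means of 39.9 ± 4.23 CPM and 54.0 ± 4.16 CPM (SD, n = 3 each) gave the log2 fold change as 0.44 (standard error 0.10, 95% interval 0.22 to 0.66), or 1.35-fold, with an adjusted p of 0.013 by edgeR's quasi-likelihood test. The call was lost without siControl replicate 2 (edgeR adjusted p = 0.070), without siControl replicate 3 (adjusted p = 0.056) and in the limma fit to rescaled FPKM (log2 fold change 0.23, adjusted p = 0.11). The latter value lay 0.39 above the all-gene median of that scale. In the gene models of GENCODE v44, though not in the RefSeq spans given here, TRIM25 shares exon sequence with DGKE on the opposite strand and with C17orf67 on its own strand, whose log2 fold changes were -0.12 (edgeR adjusted p = 0.60) and 0.19 (adjusted p = 0.55).

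IFI6 (chr1:27666064-27672192) has the promoter with the most ISRE matches among those printed, together with IFIT5. It was measured at 5.75, 3.79 and 3.22 CPM in siControl and at 6.62, 6.38 and 6.32 CPM in siPSF. The siPSF values were close together, whereas siControl replicate 1 lay well above its group and near the siPSF range. Group means of 4.25 ± 1.33 and 6.44 ± 0.158 CPM (SD, n = 3 each) gave the log2 fold change as 0.60 (standard error 0.19, 95% interval 0.19 to 1.01) and an edgeR adjusted p of 0.051. Without siControl replicate 1 the log2 fold change was 0.88 and the gene was called (edgeR adjusted p = 0.0036), and without siControl replicate 2 the adjusted p was 0.19. DESeq2's Wald test called it higher (adjusted p = 0.011), as did edgeR with the replicate number as a block (adjusted p = 0.038). IFI6 was thus called in 4 of 12 alternative fits, and in each of the 12 its fold change was above 0.

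The IFIT genes lie next to one another on chromosome 10. IFIT1 (chr10:89392623-89406487), the best known of the family, was near the limit of detection, with 5, 3 and 13 counts in siControl and 20, 15 and 10 in siPSF. As CPM these counts were 0.0411, 0.0225 and 0.103 against 0.168, 0.142 and 0.101, so that siControl replicate 3 lay within the siPSF range. The log2 fold change of IFIT1 was 1.31 (standard error 0.53, 95% interval 0.15 to 2.46; edgeR adjusted p = 0.12), and it ran from 0.91 to 2.09 when single libraries were left out. The filter on low counts asked for about 0.0838 CPM in 3 libraries, which IFIT1 met in all siPSF libraries but in 1 of the siControl libraries. It therefore passed mainly through the group in which it was higher.

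IFIT2 (chr10:89302046-89309271) was at 0.173, 0.382 and 0.580 CPM in siControl and at 0.488, 0.294 and 0.710 CPM in siPSF. The range within each group was wider than the distance between their means, and the log2 fold change was 0.39 (95% interval -0.53 to 1.31; edgeR adjusted p = 0.58). IFIT2 counts, 21 to 73 per library, are uncertain in addition because its exons overlap those of LIPA, a lysosomal lipase gene on the opposite strand with 2296 to 3313 counts per library. LIPA itself was called higher after siPSF, by 0.55 on the log2 scale (edgeR adjusted p = 0.0060). IFIT1 also lies within the span of LIPA, without exon overlap. These overlaps are those of GENCODE v44. The RefSeq span of LIPA (chr10:89213572-89414679) also reaches past the start of IFIT5. The part of LIPA in the counts of IFIT1, IFIT2 and IFIT5 was not tested.

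IFIT5 (chr10:89414568-89420997) was the most abundant of the 3 measured IFIT genes per length. It stood at 8.08, 5.60 and 7.81 CPM in siControl and at 8.25, 5.86 and 9.08 CPM in siPSF. In both groups the libraries of replicate 2 were the lowest. Its log2 fold change was 0.11 (95% interval -0.28 to 0.50; edgeR adjusted p = 0.73).

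ISG15 (chr1:1013497-1014540), the modifier that is among the most strongly induced genes when interferon reaches a cell, was the member with the least difference. It was at 2.01, 1.72 and 1.14 CPM in siControl and at 1.71, 1.66 and 1.47 CPM in siPSF, and all siPSF libraries fell inside the siControl range. The means were 1.62 ± 0.444 and 1.61 ± 0.125 CPM (SD, n = 3 each). The log2 fold change was -0.01 (95% interval -0.48 to 0.47; edgeR adjusted p = 0.99), and its sign turned with the library left out.

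OAS1 (chr12:112906962-112933219) was at 2.58, 3.25 and 3.14 CPM in siControl and at 2.95, 3.12 and 3.65 CPM in siPSF. The highest library was a siPSF one and the lowest a siControl one, with the others interleaved. Its log2 fold change was 0.11 (95% interval -0.23 to 0.46; edgeR adjusted p = 0.68). IRF9 (chr14:24161265-24166565), the DNA-binding subunit of ISGF3, was at 13.2, 15.0 and 13.7 CPM in siControl and at 15.7, 15.9 and 13.6 CPM in siPSF. The lowest siPSF library of IRF9 lay below 2 of the siControl libraries, and its log2 fold change was 0.11 (95% interval -0.12 to 0.35; edgeR adjusted p = 0.53). The fold changes of OAS1, IRF9 and IFIT5 were below 0 with limma on rescaled FPKM (-0.089, -0.077 and -0.067), and against that scale's own median they were 0.072, 0.084 and 0.093 higher.

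**Figure D3:**
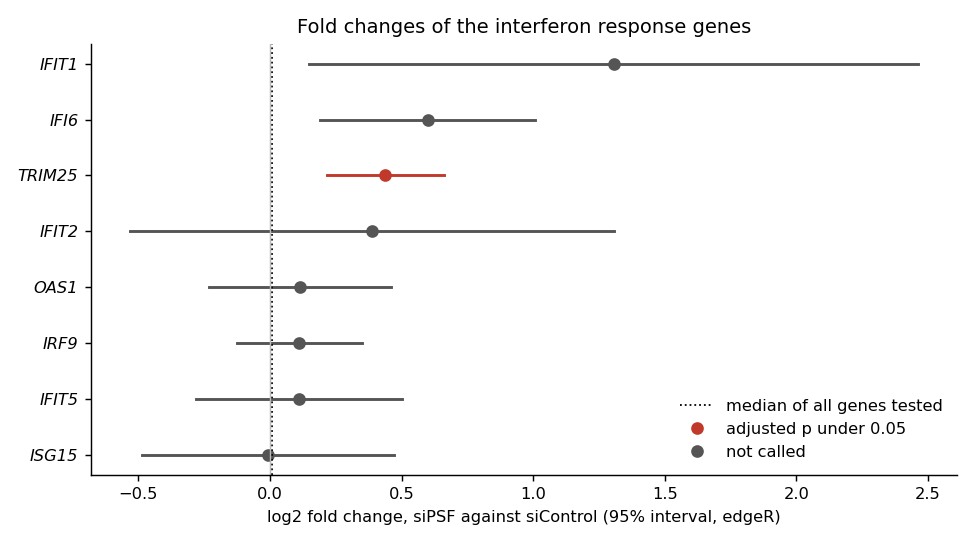
Log2 fold change of each measured gene, siPSF against siControl, with its 95% interval from edgeR's quasi-likelihood fit (x axis); red marks the gene called at an adjusted p under 0.05 and the dotted line is the median of all genes tested. TRIM25 is the one called gene at 0.44, IFIT1 has the widest interval (0.15 to 2.46), and ISG15 sits at -0.01.

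Per length, the 8 genes covered a wide range of levels in the deposited FPKM. Over the 6 libraries IRF9 was the highest with a mean of 8.10 FPKM (7.36 to 8.63), before TRIM25 with 7.37 (6.03 to 8.69) and IFI6 with 5.87 (3.74 to 7.21), and the ranges of neighbours overlapped. IFI6 stood apart from ISG15 at 2.29 FPKM (1.70 to 2.89), which overlapped IFIT5 at 1.68 (1.27 to 1.98), as IFIT5 did OAS1 at 1.47 (1.22 to 1.64). IFIT2 at 0.116 FPKM (0.0454 to 0.182) and IFIT1 at 0.0175 (0.00298 to 0.0313) each stood apart below them. Of all genes in the table, 68.1% had a lower mean FPKM than IRF9 and 47.4% a lower one than ISG15. For IFIT1 the ratio of FPKM to count differed between libraries (0.704 to 1.01 of the gene's median), whereas for ISG15, IFI6, IFIT5, IRF9 and TRIM25 it varied by under 1% of the median.

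The 8 genes did not vary as 1 block over the 6 libraries. Pearson's r between their log2 CPM, given as a description over 6 libraries that share the contrast, had a median of 0.21 over the 28 pairs and was above 0 in 20 of them. The closest pair was IFI6 and TRIM25 (r = 0.91), and ISG15 and IFIT2 were the farthest apart (r = -0.74). Among the 14678 or more other genes whose mean reached 1 CPM, those nearest to ISG15 were TRIM47 and GAMT (r = 0.99 each), those nearest to IFIT1 were ZNF365 and MRPS25 (r = 0.99 each), and those nearest to IRF9 were PCOLCE (r = 0.99) and DUS4L-BCAP29 (r = 0.98). With 6 libraries such values are common: 160 genes had an r over 0.9 with ISG15, 211 with IFIT1 and 78 with IRF9.

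The parts of the system upstream of these genes were compared by role. None of the 22 interferon ligand genes listed had a row in the table, and they were not analysed here. The 6 receptor chains were all tested, 0 were called at an adjusted p under 0.05, 0 had an unadjusted p under 0.05 (edgeR), and DESeq2 and limma also called 0. The chain IFNAR1 averaged 29.3 ± 3.98 CPM under siControl and 26.0 ± 3.08 CPM under siPSF (SD, n = 3 each), and IFNAR2 14.5 ± 0.835 and 15.0 ± 0.953 CPM. Of the 10 JAK and STAT genes 0 were called, and 1 had an unadjusted p under 0.05 (edgeR). DESeq2's Wald test and limma on FPKM each called 1 of them lower. Over all genes, edgeR called 6.65% higher and 8.27% lower. DESeq2's Wald test called 2058 genes lower, and limma on FPKM called 1782 of 14830 lower.

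STAT2, which binds IRF9 in ISGF3, had a higher value in every siPSF library without passing the test. It was at 64.4, 66.3 and 62.5 CPM in siControl and at 69.0, 74.7 and 69.2 CPM in siPSF, and its log2 fold change was 0.14 (edgeR adjusted p = 0.27). The kinases JAK1 and TYK2 had log2 fold changes of -0.26 (95% interval -0.59 to 0.07) and -0.06 (95% interval -0.28 to 0.17). For JAK1, siPSF replicate 3 was the lowest library at 53.9 CPM, and the other 5 libraries were at 85.5 CPM or above.

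Among the interferon regulatory factors, 2 of the 6 tested were called higher and 1 lower, beside 6.65% and 8.27% of all genes. IRF5, a factor of inflammatory gene induction, rose from 4.03 ± 0.839 to 6.24 ± 0.647 CPM (SD, n = 3 each; log2 fold change 0.63, edgeR adjusted p = 0.023). IRF2, which occupies ISRE-like sites and can dampen induction, rose from 10.8 ± 1.25 to 14.4 ± 1.34 CPM (log2 fold change 0.42, edgeR adjusted p = 0.037). IRF7, the amplifier of type I interferon production and itself an ISGF3 target, fell from 30.0 ± 3.13 to 22.8 ± 0.837 CPM (log2 fold change -0.39, edgeR adjusted p = 0.022). Each of these 3 calls was lost in at least 3 of the 6 fits that left out 1 library, siControl replicate 2 among them (edgeR adjusted p = 0.10, 0.17 and 0.098). IRF3, which carries the signal of nucleic acid sensors, was at 43.0 ± 3.36 and 42.0 ± 3.58 CPM (edgeR adjusted p = 0.85).

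Of the 20 nucleic acid sensors and adaptors tested, 1 was called higher and 1 lower, beside 6.65% and 8.27% of all genes. MAVS, the mitochondrial adaptor of RIG-I, fell from 125 ± 10.7 to 100.2 ± 9.60 CPM (log2 fold change -0.32, edgeR adjusted p = 0.044), and PQBP1, a cofactor of the DNA sensor cGAS, rose from 56.7 ± 4.65 to 71.2 ± 2.32 CPM (log2 fold change 0.33, edgeR adjusted p = 0.026). Either call held in 2 of the 6 fits that left out 1 library. RIG-I itself, listed in the table as DDX58, averaged 3.68 CPM under siControl and 2.98 CPM under siPSF (log2 fold change -0.30, edgeR adjusted p = 0.24).

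The 37 other interferon-stimulated antiviral genes tested held 7 called higher and 1 called lower, beside 6.65% and 8.27% of all genes. Their median log2 fold change was 0.35, beside 0.0097 over all genes. SHFL, which blocks ribosomal frameshifting on viral RNA, rose from 6.18, 4.53 and 4.35 CPM to 9.97, 10.8 and 11.0 CPM, which is 1.08 on the log2 scale (edgeR adjusted p = 0.00062). LGALS3BP, a secreted glycoprotein, rose from 107, 115 and 98.7 CPM to 150, 163 and 188 CPM (log2 fold change 0.64, edgeR adjusted p = 0.0013). SP110, a nuclear body protein, rose from 0.321, 0.330 and 0.246 CPM to 0.909, 0.815 and 0.548 CPM (log2 fold change 1.34, edgeR adjusted p = 0.0083). These 3 calls held in all 6 fits that left out 1 library. The count of 7 fell to 3 without siControl replicate 2 or without siControl replicate 3. In these fits the number of all genes called higher fell from 1310 to 572 and 732. The count of 7 became 2 with limma on FPKM, where 2 genes were also called lower after rescaling. Over all genes, limma called 736 higher and 1782 lower on FPKM, and 463 higher and 3409 lower after rescaling.

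The 29 genes of that list that were not called ran from -0.45 (ISG20) to 0.92 (BST2) on the log2 scale, with edgeR adjusted p of 0.12 and 0.063, and the groups of both did not overlap. These 2 genes and the next 3 were named after their values were seen. MX1, a dynamin-like GTPase, was at 0.649, 0.525 and 0.421 CPM in siControl and at 0.690, 0.540 and 0.852 CPM in siPSF (log2 fold change 0.38, edgeR adjusted p = 0.38). RSAD2, which makes a chain-terminating nucleotide, was at 1.30, 1.50 and 0.810 CPM against 1.37, 1.44 and 1.72 CPM (log2 fold change 0.33, edgeR adjusted p = 0.39). OAS3, the neighbour and paralogue of OAS1, averaged 10.3 ± 0.366 CPM under siControl and 10.5 ± 1.19 CPM under siPSF (edgeR adjusted p = 0.89). Summed over the list the level was 725 to 765 CPM in siControl and 801 to 865 CPM in siPSF, and without LGALS3BP it was 618 to 660 CPM and 652 to 693 CPM, where the groups overlapped.

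**Figure D4:**
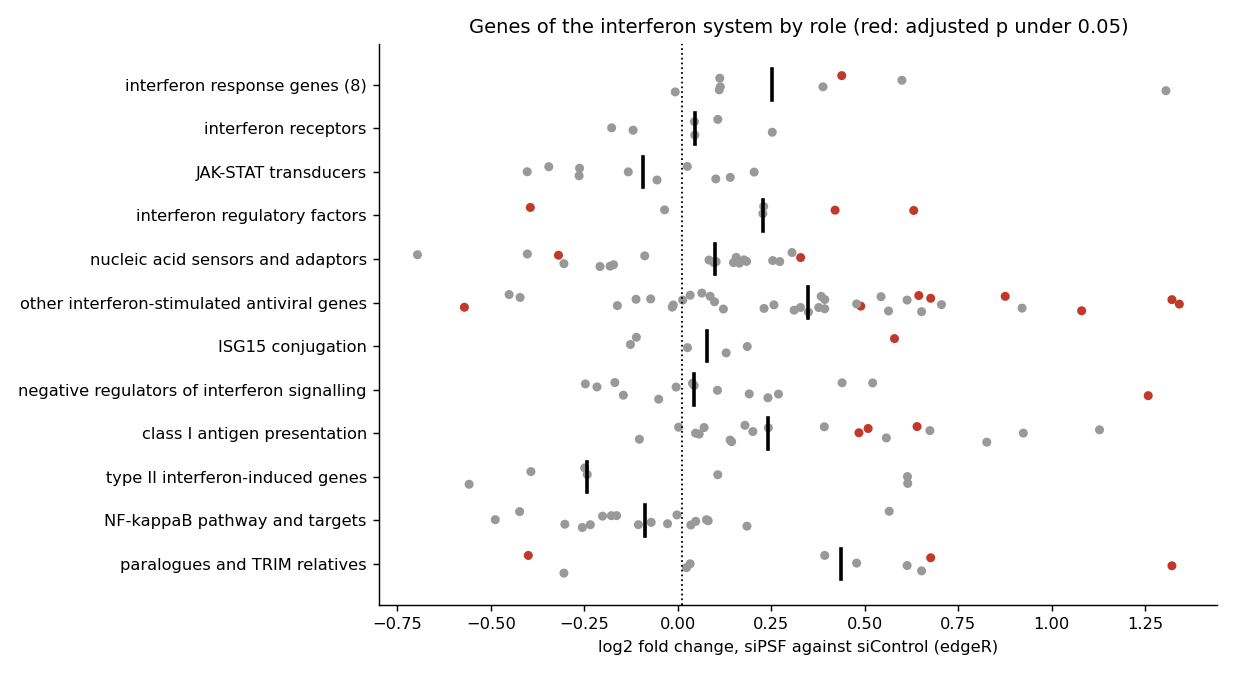
Log2 fold change, siPSF against siControl (x axis, edgeR), of every tested gene of each list by role; points are genes, red points were called at an adjusted p under 0.05, black bars are list medians and the dotted line is the median of all genes tested. The antiviral list has a median of 0.35 with 7 of 37 genes called higher, beside 6.65% of all genes. The receptor and JAK-STAT lists show no red point.

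Of the 6 genes listed under ISG15 conjugation, HERC6, an interferon-induced HECT ligase, rose from 6.75 ± 0.945 to 10.1 ± 0.229 CPM (SD, n = 3 each; log2 fold change 0.58, edgeR adjusted p = 0.010). Whether HERC6 acts in ISG15 conjugation in these cells was not tested. The other 5, the E1 enzyme UBA7, the E2 enzyme UBE2L6, the ligases HERC5 and ARIH1 and the protease USP18, were not called. The HERC6 call was lost without siControl replicate 2 (edgeR adjusted p = 0.063). Among 15 negative regulators 1 was called, SOCS1, an inhibitor of JAK kinases, which rose from 0.192 ± 0.0656 to 0.460 ± 0.0264 CPM (log2 fold change 1.26, edgeR adjusted p = 0.024). It was called in 3 of the 6 fits that left out 1 library. For both lists, the share of all genes called higher was 6.65%.

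Class I antigen presentation, which interferon raises in most cells, had 3 of 19 genes called higher, 0 called lower and 18 of 19 with a log2 fold change above 0, with a median of 0.24. Beside these stand 6.65% of all genes called higher, 8.27% called lower and an all-gene median of 0.0097. PSME1, an activator subunit of the proteasome, rose from 45.6, 48.7 and 41.4 CPM to 62.7, 65.1 and 65.2 CPM (log2 fold change 0.51, edgeR adjusted p = 0.0027), a call that held in all 6 fits that left out 1 library. TAP2, a peptide transporter subunit, rose from 8.99 ± 1.52 to 14.0 ± 1.67 CPM (log2 fold change 0.64, edgeR adjusted p = 0.010; 0.058 without siControl replicate 2). HLA-C rose from 28.7 ± 7.09 to 40.2 ± 2.21 CPM (log2 fold change 0.48, edgeR adjusted p = 0.042) and kept the call in 2 of those 6 fits. HLA genes resemble each other, so their counts may share reads. The list held 1 call without siControl replicate 2 or replicate 3, and 5 with the replicate block. Over all genes, 572, 732 and 1389 were called higher in these fits.

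The type II interferon genes (7 tested, median -0.24) and the genes of the NF-kappaB pathway (18 tested, median -0.09) held 0 calls by edgeR, with 3 and 1 genes at an unadjusted p under 0.05. DESeq2's Wald test also called 0 genes of either list, and limma on rescaled FPKM called 2 and 4 genes lower. On that scale 3409 of all 14827 genes tested were called lower, and the all-gene median was -0.16. In the list of paralogues and TRIM relatives, 2 of the 10 genes tested were called higher and 1 lower, beside 6.65% and 8.27% of all genes. TRIM21 and TRIM22, which the antiviral list also holds, were higher (log2 fold changes 0.68 and 1.32, edgeR adjusted p = 0.046 and 0.031). IFI27L1, a relative of IFI6, was lower (log2 fold change -0.40, edgeR adjusted p = 0.014). TRIM22 stood at 0.210 to 0.353 CPM in siControl and 0.375 to 1.05 CPM in siPSF. Both TRIM calls were lost in 4 of the 6 fits that left out 1 library, siControl replicate 2 among them.

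Over the 12 lists together, the 146 distinct genes tested that are not among the 9 held 15 called higher (10.3%) and 4 called lower (2.74%), beside 6.65% and 8.27% of all genes, with a median log2 fold change of 0.10. Without siControl replicate 2 the counts were 4 and 1, beside 572 and 928 over all genes. On rescaled FPKM they were 3 and 14, beside 463 and 3409 over all genes. The lists were written with earlier results of these data known, so these shares are a description. The ISRE letters were present in at least 1 window of 26 of the 41 antiviral genes with a window, 11 of 17 class I genes and 0 of the 9 JAK and STAT genes. Over all tested genes with an ISRE match, 47 of 523 were called higher (8.99%) and 54 lower (10.3%), beside 6.40% and 8.50% of the 13729 tested genes with a window, and the median log2 fold changes were 0.0020 and 0.0046. Among the 4 measured genes with a match to these letters, the log2 fold changes were 1.31 for IFIT1, 0.60 for IFI6, 0.11 for IFIT5 and -0.01 for ISG15.

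The spans of the genes run from 1.04 kb (ISG15) to 26.3 kb (OAS1). When the median of tested genes of like span, in 20 bins, was taken from each value, the log2 fold changes were 0.40 for TRIM25, 0.55 for IFI6, 1.25 for IFIT1, 0.34 for IFIT2, 0.07 for OAS1, 0.06 for IRF9 and IFIT5 and -0.12 for ISG15.

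**Figure D5:**
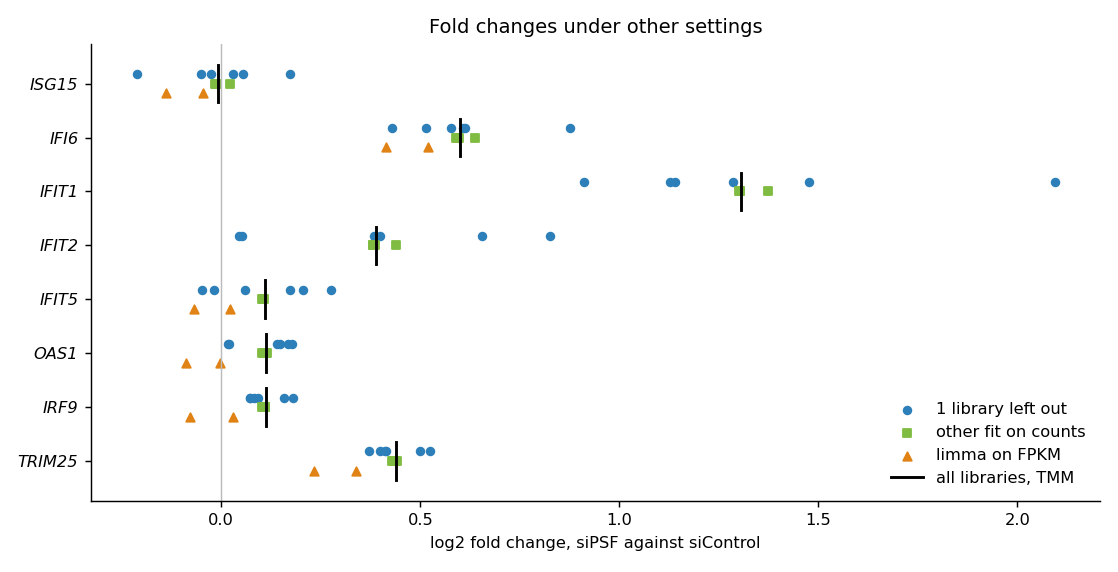
Log2 fold change of each measured gene (x axis) with all libraries and TMM scaling (black line), with 1 library left out (blue), in the other fits on counts (green) and with limma on FPKM (orange, for the 6 genes with a mean of at least 0.5 FPKM). TRIM25, IFI6, IFIT1 and IFIT2 stay above 0 in every fit shown. ISG15 and IFIT5 lie on both sides of 0 among the fits to counts. OAS1 is below 0 in both limma fits to FPKM alone, 0.056 and 0.072 above the all-gene median. IRF9 is below 0 only in limma on rescaled FPKM, 0.084 above that median.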

How the data were processed

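The authors deposited 1 table in which every gene has a read count and an FPKM value per library. For the deposited counts, TruSeq libraries were sequenced and, by the paper's methods, the authors removed rRNA reads with Bowtie 2, mapped to hg38 with TopHat and counted tags on RefSeq; the submitters' processing notes name Trimmomatic, HISAT2 2.1.0 and StringTie 2.1.3b instead, and the sources were not reconciled here. The FPKM values, which the methods call RPKM, were normalized by the authors to exon length and mapped reads. The smallest count is 1, so genes at 0 in any library were not analysed here. Use of strand in counting is not given in the sources used here, and overlapping genes are uncertain. Total counts ran from 101540520 to 132420931 per library. No pair of replicates was alike within sampling noise (chi-square per degree of freedom 22.61 or more). Columns were assigned through the replicate in the sample titles, and 0 per-sample columns were left unused.

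Counts were filtered with filterByExpr, scaled by TMM (factors 0.964 to 1.053) and tested with edgeR 4.0.16 (quasi-likelihood, no block) in R 4.3.3, with Benjamini-Hochberg adjustment over 19694 genes. Standard errors and intervals derive from that fit. Alternatives used DESeq2 1.42.0, limma 3.58.1 on log2(FPKM + 0.5) for genes with a mean of at least 0.5, a replicate block, DESeq2 size factors, no filter, each library left out, and centring within 20 bins of gene span. The fits were tested on simulated data. The members and the 12 lists were chosen with earlier results of these data known. Besides the 9 members, the genes named are SFPQ, IFNAR1, IFNAR2, JAK1, TYK2, STAT2 and IRF3, up to 3 called genes with the smallest p per list and the 2 genes nearest to ISG15, IFIT1 and IRF9, or were chosen after their values were seen; 1 further gene of that rule is not reported here. List symbols were matched by gene ID to RefSeq of GRCh38.p14, in which 20822 of 21301 gene IDs were found; overlaps come from GENCODE v44.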

Additional observations from a re-analysis of the deposited data

How the results depend on the processing

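The fall of SFPQ kept its direction and call in all 12 alternatives. The number of genes called higher ran from 572 to 1405 and that called lower from 928 to 1735 when single libraries were left out. DESeq2's Wald test called 1586 higher and 2058 lower. Limma called 736 higher and 1782 lower on FPKM, and 463 higher and 3409 lower after rescaling. Of the 8 interferon response genes, 0 to 2 were called higher without single libraries, 2 with the replicate block, 2 with DESeq2's Wald test and 0 with limma on rescaled FPKM. IFI6 was called with the block (log2 fold change 0.64) and by DESeq2 (0.59), and ran from 0.43 to 0.88 without single libraries. TRIM25 ran from 0.37 to 0.52, and was at 0.23 and not called on rescaled FPKM. Of the genes that were never called, ISG15, IFIT5, IRF9 and OAS1 lay between -0.01 and 0.11 with all libraries. Without single libraries, IFIT1 ran from 0.91 to 2.09 and IFIT2 from 0.045 to 0.83. ISG15 ran from -0.21 to 0.17 without single libraries and was at 0.022 with the block. IFIT5 ran from -0.049 to 0.27. On rescaled FPKM, IFIT5, IRF9 and OAS1 were at -0.067, -0.077 and -0.089, but 0.093, 0.084 and 0.072 above the all-gene median of -0.16. OAS1 on FPKM was at -0.0030, 0.056 above its median of -0.059. The causes of these signs were not tested. Over the lists, 4 to 21 genes were called higher and 1 to 4 lower without single libraries, 7 and 7 with limma on FPKM, and 3 and 14 after rescaling. IFIT1 and IFIT2 had too low an FPKM for limma, and DESeq2 gave IFIT1 no adjusted p.

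The labels do not say whether replicates with the same number were handled together. The correlations of their deviations from the group means were -0.02, 0.20 and 0.09. The replicate block moved the calls over all genes to 1389 higher and 1640 lower. Depth limits IFIT1 (3 to 20 counts) and IFIT2 (21 to 73 counts) most.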
